A study of Mus musculus with 8 samples.

Results

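TPMR1 tumors were set against TPM tumors through 4 of the 8 deposited RNA-seq libraries, 2 for each model, taken as those whose labels name the TPM and the TPMPik3r1 mouse models of endometrial cancer (EC). TPM cells were uterine organoids of CAG-Cas9-EGFP mice, in which a ubiquitous promoter drives Cas9, and they carried, among other edits, a guide (sgRNA) to Trp53 and a retroviral Myc. TPMR1 cells carried the same edits and in addition an sgRNA against Pik3r1, so that the Trp53 guide and the Myc virus are shared by both models and only the Pik3r1 guide sets them apart. The cells were transplanted into the uterus of young adult female nude mice, which lack T cells. The labels call the material EC tumor organoids of nude mice, while the methods of the study describe tumor tissue, and each library came from 1 mouse, so that n = 2 mice for each model throughout. The counts cover 24419 genes, and the totals of the 8 libraries ran from 15748396 to 26943611, the latter in TPMR1 replicate 1, so that a count of 3 stood for 0.116 to 0.198 CPM (counts scaled to a common library size).

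Pik3r1 encodes p85alpha, the regulatory subunit that stabilizes the catalytic subunit of phosphoinositide 3-kinase (PI3K) and holds it in check until a receptor tyrosine kinase is engaged. The kinase makes the lipid that recruits Akt, which in turn raises mTOR activity and keeps FoxO transcription factors out of the nucleus. PIK3R1 is often mutated in human endometrial cancer. The normal endometrium has an epithelium of keratin-bearing cells, joined by E-cadherin, tight junctions and desmosomes, over a stroma of fibroblast-like cells. In an epithelial-mesenchymal transition (EMT), factors such as Zeb1, Zeb2 and Snai2 bind E-box sequences in the promoters of junction genes and repress them. Steroid hormones are made in a few tissues, among them the adrenal cortex and the gonads, under the nuclear receptor Nr5a1 (SF-1) and the zinc finger factor Gata4.

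The Pik3r1 guide was the designed difference between the models and the Trp53 guide was common to them, and both are given 5′ to 3′ in lower case with the position of their match in the GRCm38 transcripts of GENCODE.
Pik3r1 guide: ttggctacagtagtgggct
Trp53 guide: gtgaagccctccgagtgtc
The Pik3r1 guide matched chr13:101690544-101690562 on the plus strand, opposite to the strand of the gene, beside the PAM TGG. This site lay in 5 of the 7 annotated Pik3r1 transcripts and in the coding part of 3 of the 4 transcripts annotated as protein coding. In Pik3r1-202, which has 16 exons, it fell in exon 8. The Trp53 guide matched chr11:69587439-69587457 on the plus strand, the strand of the gene, beside the PAM AGG. All 4 coding Trp53 transcripts held it in exon 4 of 11, within the coding sequence.

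The engineered genes were read first. Pik3r1 stood at 99.6 and 188 CPM in the TPM libraries and at 100.5 and 51.3 CPM in the TPMR1 libraries. The groups overlapped in Pik3r1, with a log2 fold change of -0.92 ± 0.42 (SE, derived from the F statistic of the test). Its adjusted p was 0.245 in the quasi-likelihood test of edgeR. Counts per gene do not read the edit itself, so the Pik3r1 level neither shows nor refutes that the gene was cut. The paper reports a disrupted Pik3r1 by an endonuclease assay in organoids, and TPMR1 tumors negative for its protein by staining. Trp53, the p53 tumor suppressor gene, which both models carry a guide against, was at 106 and 131 CPM in TPM and at 33.2 and 55.1 CPM in TPMR1. Both TPMR1 libraries lay below both TPM libraries, and Trp53 fell by 1.42 ± 0.31 on the log2 scale (adjusted p = 0.0478, edgeR). That call was near the threshold: it was lost without TPMR1 replicate 1 (adjusted p = 0.0903, edgeR), without TPM replicate 1 (0.17) and without TPM replicate 2 (0.217). Myc, whose count adds the viral copy to the mouse's own, ranged from 772 to 1767 CPM in TPM and from 466 to 606 CPM in TPMR1 and was not called (log2 fold change -1.24 ± 0.95, adjusted p = 0.489, edgeR).

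TPMR1 tumors had 172 genes above TPM and 714 below it at an adjusted p under 0.05, which is 1.08% and 4.5% of the 15875 genes tested (edgeR, a single fit over all 8 libraries). In all these 886 genes the TPM and TPMR1 libraries did not overlap, which was so for 52.9% of all genes tested. The counts leaned on single libraries. Without TPM replicate 1 it was 5 higher and 159 lower, and without TPM replicate 2 it was 7 higher and 290 lower. Without TPMR1 replicate 2 it was 757 higher and 1302 lower, so that the share of lower genes went from 80.6% to 63.2%, and without TPMR1 replicate 1 it was 214 higher and 513 lower (70.6%). The TPMR1 libraries differed widely from each other. On log2(CPM + 1), 1664 genes were over 4-fold apart between them, 10.5% of those tested, against 349 between the TPM libraries and 606 between the TPMCa libraries. When each TPMR1 library was compared alone with TPM, with its spread assumed to be like that of the other models, 757 genes were higher (4.52%) and 1302 lower (7.78%) in replicate 1, and 214 were higher (1.28%) and 513 lower (3.08%) in replicate 2.

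More genes were lower than higher in both libraries when each was tested alone. Of the genes lower in 1 TPMR1 library alone, 432 were lower in each, 33.2% of those of replicate 1 and 84.2% of those of replicate 2. Of the genes higher, 80 were higher in each, 10.6% of those of replicate 1 and 37.4% of those of replicate 2. Both comparisons use the same TPM libraries. Only 5 genes were called in opposite directions, named here after their values were seen: Nabp1 and 1110008P14Rik were higher in replicate 1 and lower in replicate 2, and Capn6, Emilin2 and Myh10 the reverse. Among the 714 genes lower in TPMR1, 117 had no count in either TPMR1 library, and genes near 0 in both cannot be far apart on this scale. Among the 172 higher genes, 27 (15.7%) had TPMR1 libraries over 4-fold apart, and in 110 the larger change was in replicate 1. Of the genes named below by the lists or by size, 94 were called lower, and 38 of them kept their call without each of the 4 libraries in turn, whereas 18 were called higher and only Gata4 did so.

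**Figure D1:**
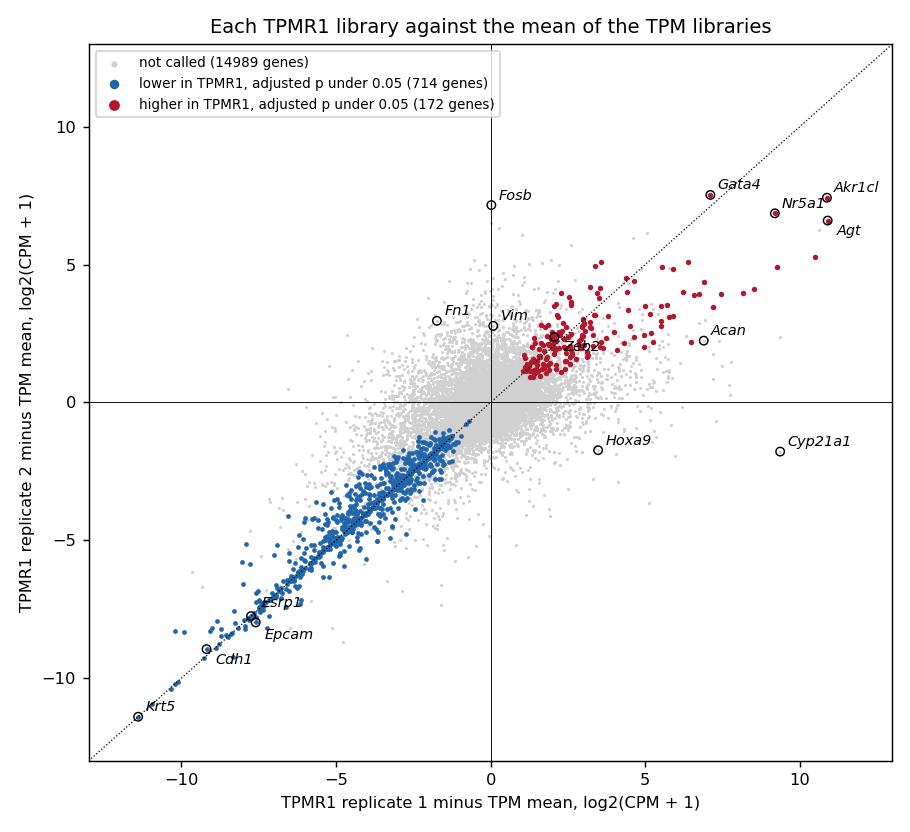
Each point is a gene tested, placed by its difference from the mean of the 2 TPM libraries on log2(CPM + 1) in TPMR1 replicate 1 (horizontal) and TPMR1 replicate 2 (vertical), with the 714 genes called lower in blue, the 172 called higher in red and labelled genes circled. Genes at 0 in both TPMR1 libraries, such as Krt5, lie on the dotted line of equal change by construction, most red points with large changes lie below it, on the side of replicate 1, and genes such as Cyp21a1, Hoxa9, Fosb and Fn1 lie far from the line, each on the side of 1 library.

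The epithelial junction and keratin genes were nearly silent in both TPMR1 libraries. Of 21 genes for adhesion, tight junctions, desmosomes and simple keratins, 19 were lower and 0 higher in TPMR1, against 4.5% and 1.08% of all genes. Like the lists below, these genes were chosen with earlier results of these data known. Such counts therefore describe the lists and are no independent support. Their median log2 fold change was -7.43, where the median over all genes tested was 0.03. Epcam, an epithelial adhesion molecule, had 313 and 392 CPM in TPM and 0.813 and 0.389 CPM in TPMR1, and fell by 9.15 ± 0.60 on the log2 scale (adjusted p = 0.00252, edgeR). Cdh1 (E-cadherin), the core of the adherens junction, had 787 and 698 CPM in TPM and 0.271 and 0.5 CPM in TPMR1, and fell by 10.92 ± 0.49 (adjusted p = 0.0011, edgeR). Both genes thus stood at 0.813 CPM or less in both TPMR1 tumors and were high in both TPM tumors. Cldn4 and Cldn7, claudins of the tight junction, fell by 11.71 ± 0.59 and 9.40 ± 0.77. Dsp, which ties desmosomes to keratin filaments, went from 3647 and 973 CPM to 0.697 and 0.667 CPM. The simple keratin Krt8 stood at 849 and 516 CPM in TPM and at 1.55 and 5.84 CPM in TPMR1, and its partner Krt18 at 620 and 386 CPM against 1.24 and 7.5 CPM.

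A few junction genes kept some of their RNA. Jup (plakoglobin), which also serves the junctions of cells outside epithelia, fell less, from 1375 and 853 CPM to 40.7 and 58.7 CPM. The polarity gene Pard6b fell by 2.39 ± 0.49, from 64.7 and 47.2 CPM to 7.9 and 13.5 CPM. Cgn (cingulin) and Ppl (periplakin) were not called, and in both the TPMR1 libraries differed: Cgn stood at 62.1 CPM in replicate 1 and 8.34 CPM in replicate 2, and Ppl at 215 and 39 CPM. Each TPMR1 library alone gave the same picture for the list, with 18 of its genes lower in replicate 1 and 15 in replicate 2, against 7.78% and 3.08% of all genes. Without each of the 4 libraries in turn, 8 of the 19 calls remained (Cdh1, Cldn4, Cldn7, Dsp, Epcam, Jup, Krt7 and Pkp3), and without TPM replicate 1 it was 9. When only the 4 libraries compared were fitted, 3 of the list were called lower. These are bulk tumors, in which fewer cells of a type and less RNA per cell cannot be told apart.

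The promoters of this list are shown because its members fell together, and E-boxes are the sequences that Zeb and Snail factors bind. RefSeq windows of the 250 bases before the start (GRCm38.p6) were matched by symbol for 15 of the 21 genes, some with more than 1 start. The E-box CACCTG, read on both strands (CAGGTG on the other), was in 12 of these 20 windows and in 17.2% of all 32851 windows of that length. Of the 15 genes, 10 had it. The E-box was also in 6 of 16 windows of the epithelial regulators described next, and in 1 of 3 windows of the 10 largest falls. Whether Zeb or Snail factors act on these genes was not tested. In the windows of Epcam, Cldn4 and Krt18 it is set in capitals.
Epcam (chr17:87635729-87635978, plus strand): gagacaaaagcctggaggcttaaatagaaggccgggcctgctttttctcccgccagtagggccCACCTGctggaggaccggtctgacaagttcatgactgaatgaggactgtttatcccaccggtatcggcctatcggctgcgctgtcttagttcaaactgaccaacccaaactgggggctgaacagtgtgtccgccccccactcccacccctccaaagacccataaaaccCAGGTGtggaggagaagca
Cldn4 (chr5:134946935-134947184, minus strand): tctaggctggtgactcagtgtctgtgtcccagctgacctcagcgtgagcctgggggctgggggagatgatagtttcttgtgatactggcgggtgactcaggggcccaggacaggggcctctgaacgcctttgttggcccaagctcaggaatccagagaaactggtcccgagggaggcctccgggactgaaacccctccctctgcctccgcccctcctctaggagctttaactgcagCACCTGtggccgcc
Krt18 (chr15:102027966-102028215, plus strand): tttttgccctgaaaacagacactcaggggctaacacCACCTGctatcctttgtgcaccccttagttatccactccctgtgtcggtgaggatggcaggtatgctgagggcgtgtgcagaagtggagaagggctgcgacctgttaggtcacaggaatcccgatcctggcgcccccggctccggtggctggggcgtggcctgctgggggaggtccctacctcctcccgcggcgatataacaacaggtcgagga
Epcam held 2 matches, which begin 187 and 19 bases before the start, Cldn4 had 1 at 14 bases and Krt18 had 1 at 214 bases. A match of letters is a description of the window and says nothing of whether a factor was bound.

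Regulators that keep cells epithelial went the same way. Of 21 such genes, 17 were lower and 0 higher in TPMR1, against 4.5% and 1.08% of all genes. Across the list the median change was -8.02 on the log2 scale, and -7.64 once genes at 0 in TPMR1 took their bound. Esrp1, a splicing factor that sets epithelial isoforms, had 212 and 218 CPM in TPM and no count in either TPMR1 library, which makes it at least 1518-fold lower against a floor of 3 counts per library (adjusted p = 0.00522, edgeR). Tfap2c, an AP-2 factor, was also without a count in TPMR1 and at 25.4 and 31.2 CPM in TPM, at least 200-fold lower. Grhl2, a grainyhead factor that activates junction genes, had 93.1 and 77.2 CPM in TPM and 0.194 and 0.0556 CPM in TPMR1 and fell by 9.25 ± 0.92. Both TPMR1 libraries were below both TPM libraries in all of these 21 genes, against 28.4% of all genes tested. Spint2, an inhibitor of membrane serine proteases, fell by 3.82 ± 0.25, from 485 and 499 CPM to 36.1 and 33.6 CPM, the smallest fall called in this list. Esrp2, Ehf, Klf5 and Ddr1 were not called. Esrp2 differed between the TPMR1 libraries, with 58.1 CPM in replicate 1 and 1.45 CPM in replicate 2, beside 153 and 110 CPM in TPM. Of the 17 calls, 11 remained without each of the 4 libraries in turn. Over the list, the median difference from the TPM mean was -5.41 in replicate 1 and -6.33 in replicate 2 on log2(CPM + 1).

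Squamous genes mark the flat and layered epithelium that endometrial tumors can form, and basal and squamous keratins were among the largest falls. All of the 10 genes with the largest falls at a mean log2 CPM of 3 or more (Krt5, Krt6a, Krt13, Krt17, Krt6b, S100a14, Dsg3, Spink5, Krt16 and Mal2) had no count in either TPMR1 library. Krt5, the basal keratin, had 5720 and 1281 CPM in TPM and was at least 24750-fold lower. Krt17 had 1133 and 1242 CPM and was at least 8393-fold lower. Krt6a and Krt6b are near copies of each other, and Krt16 and Krt17 are close relatives, so that reads could be shared within each pair. Trp63, the factor of basal squamous cells, was not called, with 169 and 114 CPM in TPM and 0 and 10.4 CPM in TPMR1. The squamous list was taken from genes labeled in the paper, which describes squamous genes as decreased in TPMR1 from this same series. The count of its lower genes is therefore no independent support. Over all genes tested, 4.5% were lower in TPMR1. Of the 15 squamous genes of the list, 11 were lower in TPMR1, and 7 of these remained without each library in turn.

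Pax8, Foxa2, Pax2 and Wnt7b were among the genes of the uterine glands that fell in TPMR1. Of 19 gland factors and receptors tested, 5 were lower in TPMR1 and 1 was higher, against 4.5% and 1.08% of all genes. Their median log2 fold change was -3.07. Pax8, a factor of the Müllerian epithelium, stood at 26.4 and 12.3 CPM in TPM and at 0 and 0.0556 CPM in TPMR1. Foxa2, which uterine glands need to form, had 5.6 and 6.18 CPM in TPM and no count in TPMR1, at least 41.6-fold lower. Pax2, at 2.83 and 8.52 CPM in TPM, was also without a count in TPMR1 and at least 40.1-fold lower. Wnt7b, a ligand of the uterine epithelium, fell from 129 and 53.4 CPM to 0.0387 and 0.5 CPM. None of the 6 calls of this list remained without TPM replicate 1 (adjusted p = 0.101 for Pax8, 0.101 for Foxa2, 0.109 for Pax2 and 0.0565 for Wnt7b, edgeR), and 2 remained without TPM replicate 2. Esr1, the estrogen receptor, was above TPM in both TPMR1 libraries without being called, at 30.1 and 51 CPM in TPM and 142 and 133 CPM in TPMR1 (adjusted p = 0.137, edgeR). Pgr, the progesterone receptor, varied within both models, from 1.81 to 12.8 CPM in TPM and from 0.31 to 26.9 CPM in TPMR1.

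Secreted and surface products of the glands were lower in 8 of 17 genes tested and higher in 0, against 4.5% and 1.08% of all genes. Muc4, a membrane mucin, had 261 and 287 CPM in TPM and 0.116 and 0 CPM in TPMR1. Pigr, which carries antibody across epithelia, had 217 and 265 CPM in TPM and 0.0774 and 0 CPM in TPMR1. Muc1, Wfdc2, Ltf, Fxyd3, Fxyd4 and Agr2 were lower too, and the calls of Muc1, Muc4, Pigr, Wfdc2 and Fxyd3 remained without each library in turn. Lcn2, an iron-binding secreted protein, and C3, a complement protein, overlapped between the models: Lcn2 was at 467 and 1933 CPM in TPM and at 908 and 31.9 CPM in TPMR1, and C3 at 394 and 601 CPM against 616 and 161 CPM. Neither was called.

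The factors of EMT were called in both directions. Of 14 tested, 2 were higher and 2 lower, against 1.08% and 4.5% of all genes. Zeb2 had 31.9 and 22.1 CPM in TPM and 114 and 142 CPM in TPMR1 and rose by 2.25 ± 0.35 on the log2 scale (adjusted p = 0.021, edgeR). Zeb1 had 20.1 and 14.6 CPM in TPM and 46.5 and 51 CPM in TPMR1 and rose by 1.49 ± 0.29 (adjusted p = 0.0364, edgeR). In both genes the TPMR1 libraries were close to each other and above both TPM libraries. Snai2 went down, from 20.7 and 14.1 CPM to 2.98 and 2.45 CPM (log2 fold change -2.68 ± 0.44, adjusted p = 0.024, edgeR), as did the weakly expressed Snai3. Snai1 and Twist1 were not called, and Snai1 lay at 3.83 CPM in replicate 1 and 27.6 CPM in replicate 2, on either side of TPM. The 4 calls of this list were all lost without TPM replicate 1 or without TPM replicate 2, and those of Zeb1 and Snai3 also without TPMR1 replicate 1 (adjusted p = 0.0562 and 0.054, edgeR).

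Structural genes of mesenchymal cells were called in 0 of 20 cases and separated the TPMR1 libraries instead; at an adjusted p under 0.05, replicate 1 alone had 4 of them lower and 0 higher, and replicate 2 alone had 1 higher and 0 lower (edgeR). Vim (vimentin) was at 344 and 176 CPM in TPM, 261 CPM in TPMR1 replicate 1 and 1692 CPM in replicate 2. Fn1 (fibronectin) was at 627 and 592 CPM in TPM, 182 CPM in replicate 1 and 4744 CPM in replicate 2. In 11 of the 20 genes replicate 2 was over 4-fold above replicate 1, and in 0 the reverse. The median difference from the TPM mean was -1.18 in replicate 1 and 1.06 in replicate 2 on log2(CPM + 1). Cdh2 (N-cadherin) was above TPM in both, at 8.94 and 63.4 CPM beside 1.69 and 4.23 CPM, and was not called (adjusted p = 0.101, edgeR).

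**Figure D2:**
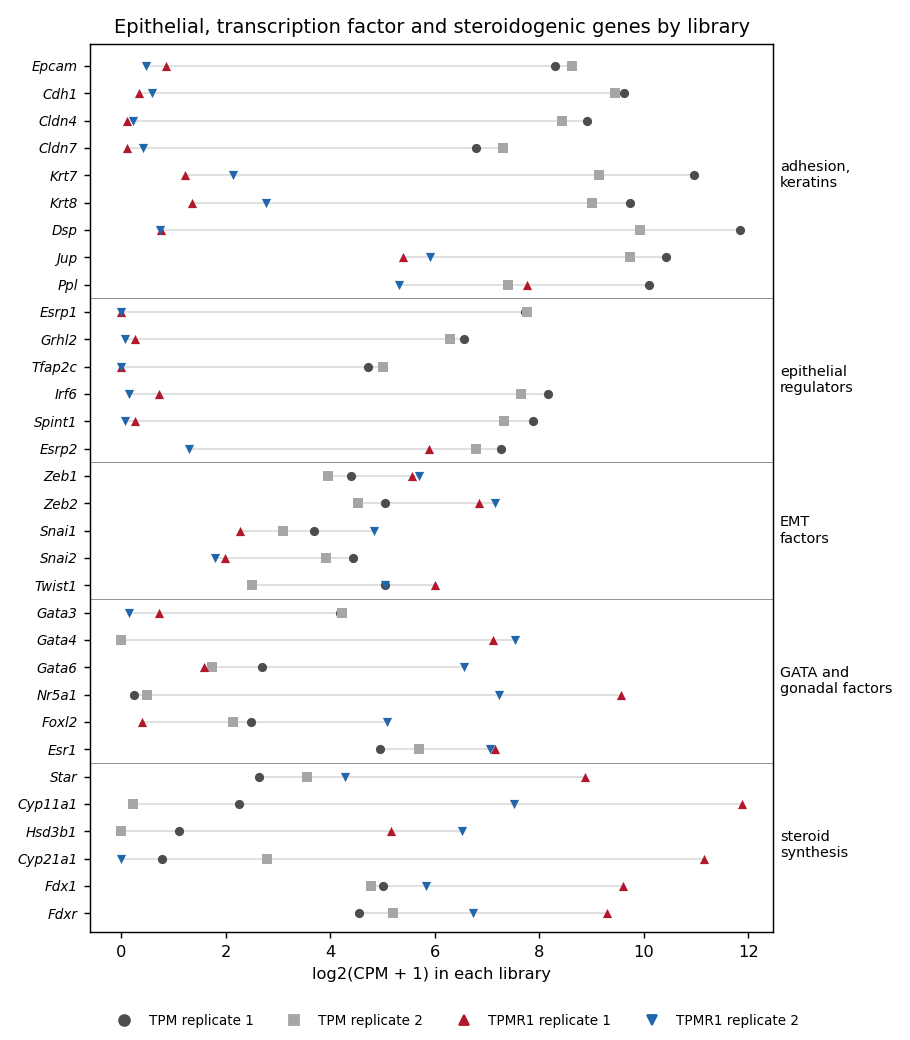
Horizontal positions give log2(CPM + 1) of each gene in the 2 TPM libraries (dark circle, light square) and the 2 TPMR1 libraries (red and blue triangles), 1 row for each gene, grouped by role. In the adhesion and regulator groups both triangles lie left of both TPM symbols, apart from Ppl, and near 0 for Epcam, Cdh1 and Esrp1; Gata4 and Nr5a1 show the opposite order, and the triangles lie far apart for Gata6, Foxl2, Star and Cyp21a1.

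The genes with the largest increases in TPMR1 began with Gata4 and took in Nr5a1, both known from steroid-making tissue. Gata4, a zinc finger factor of heart, gonad and gut development, had no count in either TPM library and 137 and 183 CPM in TPMR1, at least 910-fold higher against a floor of 3 counts per library (adjusted p = 0.00356, edgeR). It was the 1 gene among those named as higher whose call remained without each of the 4 libraries. Nr5a1, the SF-1 receptor that switches on steroid enzymes, had 0.181 and 0.4 CPM in TPM and 753 and 148 CPM in TPMR1 (log2 fold change 10.56 ± 1.70, adjusted p = 0.0234, edgeR). Both libraries of TPMR1 thus held Gata4 and Nr5a1, replicate 2 having more of the first and replicate 1 more of the second. Gata3, a GATA factor of epithelia, went down, from 17.2 and 17.6 CPM to 0.658 and 0.111 CPM (log2 fold change -5.43 ± 0.97, adjusted p = 0.0291, edgeR). Gata6 was high in 1 library alone, at 5.48 and 2.35 CPM in TPM, 2.01 CPM in TPMR1 replicate 1 and 92.9 CPM in replicate 2, and was not called.

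The other genes among the 10 with the largest increases were Akr1cl, Agt, Fabp3, Mgarp, Ptgds, Efhd1, Fign and Adam23. Akr1cl, of the aldo-keto reductase family, had 0.903 and 0.286 CPM in TPM and 2947 and 268 CPM in TPMR1, and rose by 11.39 ± 2.06 (adjusted p = 0.0303, edgeR). Agt, the precursor of angiotensin, had 1.39 and 0.801 CPM in TPM and 3969 and 199 CPM in TPMR1, and rose by 10.89 ± 1.85 (adjusted p = 0.0269, edgeR). Fabp3, a carrier of fatty acids, had 1.45 and 1.09 CPM in TPM and 3261 and 86.3 CPM in TPMR1. In these genes both TPMR1 libraries were far above TPM and replicate 1 was several times above replicate 2. Mgarp, a mitochondrial protein, stood at 1129 and 54.5 CPM in TPMR1 and Ptgds, a prostaglandin D2 synthase, at 123 and 16.3 CPM, each under 1 CPM in both TPM libraries. Fign came nearest to equal, at 51 and 32.7 CPM in TPMR1 beside 0.0602 and 0.172 CPM in TPM. Adam23 lay at 105 CPM in replicate 1 and 4.39 CPM in replicate 2, and lost its call without TPMR1 replicate 1 (adjusted p = 0.0533, edgeR), as did Mgarp (0.0524). None of the rises of these 8 genes was called without TPM replicate 1 or without TPM replicate 2, with adjusted p from 0.0735 to 0.25 (edgeR).

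Windows of the 250 bases before the start were matched for 8 of these 10 genes. The motif AGATAA of GATA factors, read on both strands, was in 2 of the 8 and in 9.99% of all windows. A motif of SF-1, AAGGTCA on either strand, was in 0 of the 8 and in 4.08% of all windows. The 2 windows with the GATA motif are shown with it in capitals, Akr1cl because it rose most after Gata4.
Akr1cl (chr1:65032760-65033009, minus strand): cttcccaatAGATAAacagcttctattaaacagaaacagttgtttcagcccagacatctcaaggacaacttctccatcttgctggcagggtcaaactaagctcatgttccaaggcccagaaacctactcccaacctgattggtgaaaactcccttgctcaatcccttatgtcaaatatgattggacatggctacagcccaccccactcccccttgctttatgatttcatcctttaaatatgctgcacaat
Mgarp (chr3:51396548-51396797, minus strand): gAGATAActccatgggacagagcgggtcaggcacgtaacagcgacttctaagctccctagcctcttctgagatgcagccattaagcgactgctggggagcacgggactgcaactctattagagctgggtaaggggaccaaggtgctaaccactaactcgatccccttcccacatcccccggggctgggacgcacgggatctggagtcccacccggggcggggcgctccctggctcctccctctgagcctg
The match begins 241 bases before the start in Akr1cl and 249 bases before it in Mgarp.

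Enzymes of steroid synthesis were high in TPMR1 replicate 1 above all. None of 15 genes tested was called in the comparison of both libraries by edgeR. By the Wald test of DESeq2 7 were higher, where that test called 1087 of all 15875 genes higher. The median difference from the TPM mean was 3.72 in replicate 1 and 0.84 in replicate 2 on log2(CPM + 1). Star, which moves cholesterol into mitochondria, was at 5.24 and 10.8 CPM in TPM, 468 CPM in replicate 1 and 18.5 CPM in replicate 2. Cyp11a1, the side chain cleavage enzyme that begins steroid synthesis, was at 3.79 and 0.172 CPM in TPM, 3768 CPM in replicate 1 and 182 CPM in replicate 2 (log2 fold change 9.96 ± 2.50, adjusted p = 0.0723, edgeR). For Star and Cyp11a1 both TPMR1 libraries were above both TPM libraries, replicate 1 by far. Fdx1 and Fdxr, which pass electrons to Cyp11a1, stood at 779 and 626 CPM in replicate 1 and at 56 and 105 CPM in replicate 2, beside 31.3 and 26.5 CPM and 22.3 and 35.6 CPM in TPM. Hsd3b1, which makes progesterone from pregnenolone, went against the others, with 35 CPM in replicate 1 and 91.1 CPM in replicate 2. Cyp21a1, the 21-hydroxylase of the adrenal cortex, had 2274 CPM in replicate 1 and no count in replicate 2; it has a near-identical pseudogene in the mouse. Cyp11b1 and Cyp11b2, which finish adrenal steroids, were under 1 CPM in all 4 libraries. Over the 20 genes of the list, the sum was 854 and 502 CPM in TPM, 9174 CPM in replicate 1 and 891 CPM in replicate 2.

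Supporting genes of the gonad told the libraries apart the other way. Foxl2, a factor of ovarian granulosa cells, was at 4.58 and 3.38 CPM in TPM, 0.31 CPM in TPMR1 replicate 1 and 33.1 CPM in replicate 2. Inha, the alpha subunit of inhibin, was at 9.93 and 12.6 CPM in TPM, 15.5 CPM in replicate 1 and 64.8 CPM in replicate 2. Replicate 2 was over 4-fold above replicate 1 in 7 of the 21 genes and under it by as much in 2. Besides Nr5a1, which was higher, none of the 16 genes tested passed the test, where 1.08% of all genes were called higher. Fshr and Cyp19a1, the receptor and the aromatase that mark mature granulosa cells, had no count in any of the 4 libraries.

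Hox genes, which set position along the uterus, differed by cluster. In the Hoxb cluster 4 of 8 genes tested were lower in TPMR1 and 0 higher, against 4.5% and 1.08% of all genes. Hoxb6 had 47.3 and 41.1 CPM in TPM and 0.62 and 1.67 CPM in TPMR1 and fell by 5.29 on the log2 scale (adjusted p = 0.00864, edgeR), a call that remained without each of the 4 libraries in turn. Hoxb5, Hoxb7 and Hoxb8 were lower as well, and their calls were lost without TPM replicate 1. Those of Hoxb7 and Hoxb8 were also lost without TPM replicate 2 and without TPMR1 replicate 1. In the Hoxa cluster 0 of 11 genes were called, and 10 were above both TPM libraries in replicate 1 while 9 were below both in replicate 2. Hoxa10, which the uterus needs for implantation, was at 7.46 and 14.9 CPM in TPM, 88.8 CPM in TPMR1 replicate 1 and 2.33 CPM in replicate 2. Hoxa9 was at 6.32 and 5.38 CPM in TPM, 75.1 CPM in replicate 1 and 1.06 CPM in replicate 2. Hoxd9 was at 75.5 CPM in replicate 1 and 5.45 CPM in replicate 2, beside 3.07 and 7.04 CPM in TPM.

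**Figure D3:**
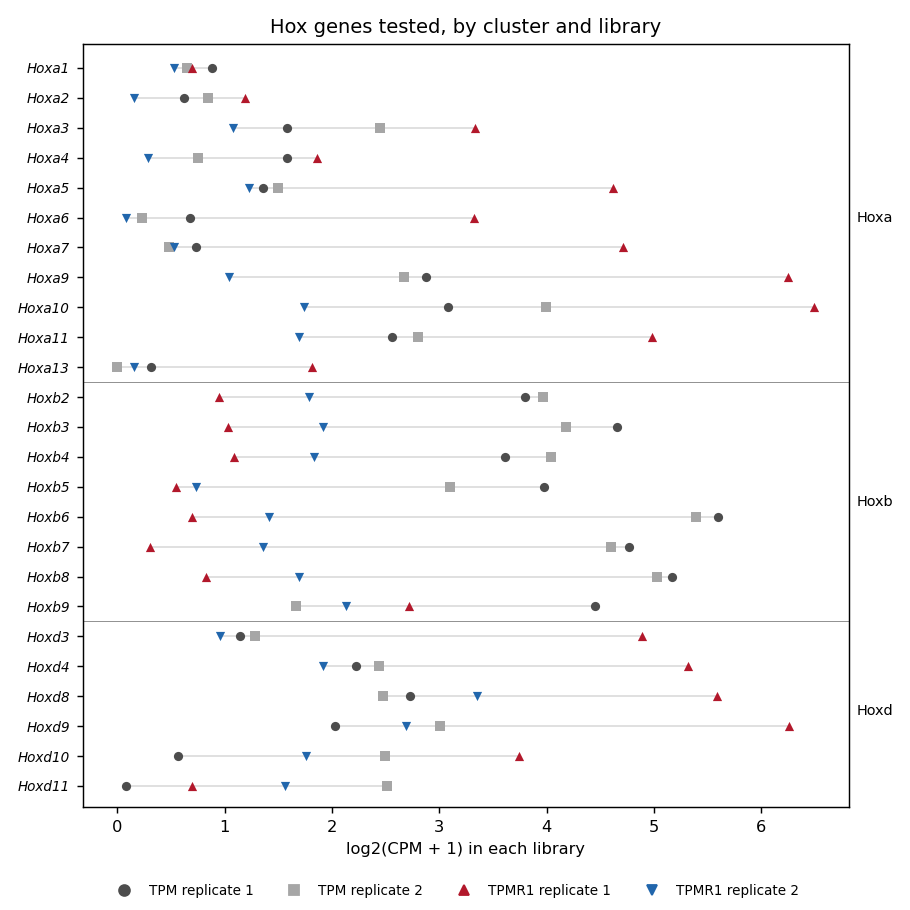
Horizontal positions give log2(CPM + 1) of the Hox genes tested in the 2 TPM and the 2 TPMR1 libraries, 1 row for each gene, by cluster. Both TPMR1 libraries (triangles) lie left of TPM from Hoxb2 to Hoxb8, whereas in the Hoxa cluster TPMR1 replicate 1 (red) lies to the right for 10 of 11 genes and replicate 2 (blue) mostly to the left.

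Genes of the PI3K pathway changed little as a set. Over all genes tested, 1.08% were called higher and 4.5% lower in TPMR1. Among 7 catalytic subunits 1 was lower: Pik3cb, which encodes p110beta, had 53.9 and 37 CPM in TPM and 16.1 and 17.7 CPM in TPMR1 (log2 fold change -1.43 ± 0.31, adjusted p = 0.0475, edgeR). This call was lost without any 1 of the 4 libraries, with adjusted p from 0.0516 to 0.306 (edgeR). Pik3ca, which encodes p110alpha, was level, at 76.6 and 60.9 CPM in TPM and 70.2 and 73.2 CPM in TPMR1. Among 8 regulatory and adaptor genes none was called (edgeR, 0 called in either direction; 0 in each TPMR1 library alone). Among 11 antagonists 1 was higher, Inppl1, which encodes the lipid phosphatase SHIP2, at 107 and 115 CPM in TPM and 386 and 234 CPM in TPMR1 (log2 fold change 1.48 ± 0.30, adjusted p = 0.0391, edgeR). Both TPMR1 libraries were above both TPM libraries in Inppl1, and the call was lost without TPMR1 replicate 1 (adjusted p = 0.0743, edgeR) and without either TPM library (0.231 and 0.183). The 17 Akt and mTOR genes held no call, with a median log2 fold change of 0.18 (2 higher with replicate 1 alone). The 20 FoxO targets held 1 call, Erbb3, which was lower, against 4.5% of all genes.

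Of 23 receptor tyrosine kinases tested, 3 (Erbb2, Erbb3 and Met) were lower in TPMR1 and 0 higher, against 4.5% and 1.08% of all genes, and the median log2 fold change was -0.20. Erbb3, the kinase-poor partner that couples Erbb2 to PI3K, had 110 and 90.6 CPM in TPM and 1.28 and 1.33 CPM in TPMR1 and fell by 6.25 ± 0.48 (adjusted p = 0.00356, edgeR). Erbb2 had 194 and 219 CPM in TPM and 1.2 and 10.9 CPM in TPMR1. Met, the receptor of hepatocyte growth factor, had 115 and 77 CPM in TPM and 3.64 and 10.7 CPM in TPMR1. Of these, the call of Erbb3 remained without each library in turn, and those of Erbb2 and Met were lost without either TPM library. Igf1r and Insr, the receptors for IGF1 and insulin, were not called. Kit, a receptor of germ cells and mast cells, was at 19.4 and 18.4 CPM in TPM and 77.9 and 49.6 CPM in TPMR1 (adjusted p = 0.0698, edgeR), and its ligand Kitl at 12.8 and 4.69 CPM beside 153 and 107 CPM (adjusted p = 0.0509, edgeR). Among 28 ligands 3 were lower, namely Tgfa, Btc and Fgf1, and 0 were higher. Tgfa, a ligand of the EGF receptor, had 60.6 and 43.1 CPM in TPM and 1.55 and 3 CPM in TPMR1, and its call remained without each library in turn.

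Of 24 Wnt ligands and feedback genes tested, 5 were lower and 0 higher, against 4.5% and 1.08% of all genes. The 5 were Wnt7b, Wnt10a, Notum, Rnf43 and Dkk3, and the median log2 fold change of the list was -2.44. Both TPMR1 libraries lay below both TPM libraries in 15 of the 24, against 28.4% of all genes. Rnf43, which removes Wnt receptors from the surface, had 26.7 and 31.6 CPM in TPM and 2.32 and 0.334 CPM in TPMR1. None of the 5 calls remained without TPM replicate 1, with adjusted p from 0.0565 to 0.186 (edgeR), and 1, that of Wnt7b, remained without TPM replicate 2. Wnt4, which the stroma uses in decidual change, separated the TPMR1 libraries, with 1.24 CPM in replicate 1 and 52.3 CPM in replicate 2, beside 94.1 and 54.2 CPM in TPM.

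Cycle genes stood slightly higher in TPMR1, with few calls. Over all genes tested, 1.08% were called higher and 4.5% lower. All of 26 S phase genes had a positive log2 fold change, with a median of 0.79, and 1 was called. That gene was E2f1, a factor that drives S phase genes, at 14.4 and 14.1 CPM in TPM and 49.5 and 54.1 CPM in TPMR1 (log2 fold change 1.86, adjusted p = 0.0281, edgeR). In 22 of the 26 both TPMR1 libraries were above both TPM libraries, against 24.5% of all genes tested. All of 26 genes of mitosis were positive as well, with a median of 0.68, and 0 were called (1 higher with replicate 2 alone, edgeR). These signs held under the other scalings, whereas without 1 of the 4 libraries 25 or 26 S phase genes stayed positive and, without TPMR1 replicate 2, 19 of the 26 genes of mitosis. Cdkn1c, an inhibitor of cyclin-dependent kinases, rose from 9.03 and 18.1 CPM to 106 and 94.2 CPM (log2 fold change 2.88, adjusted p = 0.0311, edgeR). Of 25 Myc targets 1 was higher, Srm (spermidine synthase), at 130 and 140 CPM in TPM and 318 and 338 CPM in TPMR1 (adjusted p = 0.0361, edgeR). The calls of E2f1, Cdkn1c and Srm were lost without either TPM library, and those of Cdkn1c and Srm also without TPMR1 replicate 1 (adjusted p = 0.0581 and 0.0636, edgeR). Of 20 p53 targets 1 was lower, against 4.5% of all genes. It was Perp, which is also a part of desmosomes, at 1557 and 712 CPM in TPM and 0.0774 and 2.28 CPM in TPMR1.

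Genes of sterol and fatty acid synthesis again separated the TPMR1 libraries, with 0 of 23 called. The median difference from the TPM mean was 1.49 in replicate 1 and -0.56 in replicate 2 on log2(CPM + 1). The summed level was 5509 and 7023 CPM in TPM, 17990 CPM in replicate 1 and 3426 CPM in replicate 2. Me1, which makes NADPH for lipid synthesis, was at 149 and 208 CPM in TPM, 2889 CPM in replicate 1 and 222 CPM in replicate 2. Fdps, of the mevalonate pathway, was at 1168 CPM in replicate 1 and 102 CPM in replicate 2.

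Interferon-stimulated genes and genes of class I antigen presentation held calls in 1 direction, lower in TPMR1. All of 21 interferon-stimulated genes had a negative log2 fold change, with a median of -2.48, and 5 were called lower (Ifit1, Ifit3, Isg15, Oas3 and Mx1), against 4.5% of all genes. Ifit1, which binds foreign RNA, had 247 and 105 CPM in TPM and 9.02 and 5.28 CPM in TPMR1 and fell by 4.62 (adjusted p = 0.0102, edgeR). Mx1, an antiviral GTPase, had 90.1 and 68.9 CPM in TPM and 3.87 and 0.556 CPM in TPMR1. Both TPMR1 libraries were below both TPM libraries in 19 of the 21 genes, against 28.4% of all genes, and the median difference from the TPM mean was -1.70 in replicate 1 and -3.13 in replicate 2 on log2(CPM + 1). Bst2, which tethers viruses, overlapped between the models, with 166 and 229 CPM in TPM and 199 and 191 CPM in TPMR1. The call of Ifit1 remained without each library in turn. Of the others, Ifit3 lost its call without TPMR1 replicate 2, and Isg15, Ifit3, Oas3 and Mx1 lost theirs without TPM replicate 1. The calls of Ifit3, Oas3 and Mx1 were also lost without TPM replicate 2.

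Of 14 class I genes 2 were lower and 0 higher, against 4.5% and 1.08% of all genes. Their median log2 fold change was -2.20. H2-D1, a class I heavy chain, had 279 and 249 CPM in TPM and 57.8 and 33.7 CPM in TPMR1 (log2 fold change -2.53, adjusted p = 0.0271, edgeR). H2-T23, a nonclassical chain, had 203 and 282 CPM in TPM and 30.2 and 19.45 CPM in TPMR1 (log2 fold change -3.29, adjusted p = 0.0234, edgeR). H2 genes are near copies of each other, and reads could be shared among them. B2m, the light chain, stood at 1112 and 1182 CPM in TPM and at 395 and 198 CPM in TPMR1 (adjusted p = 0.0687, edgeR). Both H2-D1 and H2-T23 lost their calls without either TPM library. The class II genes of professional antigen-presenting cells summed to 424 and 239 CPM in TPM and to 16.8 and 45.8 CPM in TPMR1, and 0 of 7 were called (0 also with either TPMR1 library alone, edgeR).

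Markers of other cell types moved with the libraries, and their part in the differences above was not tested. Bulk counts do not tell whether host or transplanted cells made this RNA. Fibroblast markers, 20 in all, summed to 9179 and 3620 CPM in TPM, 2143 CPM in TPMR1 replicate 1 and 10450 CPM in replicate 2, with no marker at 0 and replicate 2 over 4-fold above replicate 1 in 13. The 15 endothelial markers summed to 275 and 260 CPM in TPM, 377 CPM in replicate 1 and 1444 CPM in replicate 2; among them Cdh5 (VE-cadherin) stood at 38.6 and 29.6 CPM, 56.7 CPM and 255 CPM. Smooth muscle and pericyte markers summed to 215 CPM in replicate 1 and to 717, 1236 and 1221 CPM in the other 3. In this list Abcc9, a subunit of a potassium channel of pericytes, was the 1 gene called, with 7.59 and 10.9 CPM in TPM and 44.5 and 85.3 CPM in TPMR1 (adjusted p = 0.033, edgeR), a call lost without either TPM library (0.218 and 0.131). Of all genes tested, 1.08% were called higher.
Neutrophil markers were nearly missing from replicate 1, at 17.9 CPM in sum, beside 538 and 924 CPM in TPM and 588 CPM in replicate 2. S100a8, an abundant neutrophil protein, had 4.65 CPM there, beside 163 and 301 CPM in TPM and 145 CPM in replicate 2. Macrophage markers summed to 2412 and 870 CPM in TPM and to 482 and 1218 CPM in TPMR1, and 0 of 17 were called. Lymphocyte markers summed to 8.97 CPM or less in each library, and Cd3e, the T cell receptor chain, was at 0 in TPM replicate 1 and TPMR1 replicate 1. All 4 Y chromosome genes of the list were at 0 in the 4 libraries, and Xist ranged from 645 to 922 CPM.

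**Figure D4:**
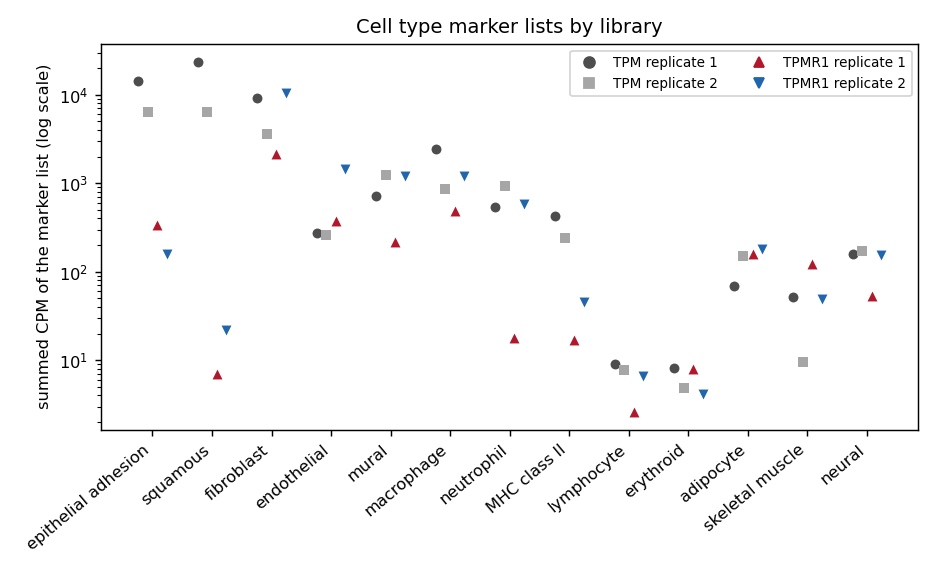
The vertical axis gives, on a log scale, the summed CPM of each marker list in the 2 TPM and the 2 TPMR1 libraries. Both TPMR1 libraries lie below TPM for the epithelial, squamous and MHC class II lists, TPMR1 replicate 1 alone is lowest for the fibroblast, mural and neutrophil lists, and replicate 2 is highest for the endothelial list.

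The genes furthest apart between the TPMR1 libraries are given as a description, with no test. Highest in replicate 1 over replicate 2, at 30 CPM or more, were Cyp21a1, Bhmt, Umodl1, Adh7, Klk1b24, Plin5, Aifm3, Klk1b27, Klk1b21 and Cdhr5. Bhmt, a methyl transfer enzyme of liver and kidney, had 2170 CPM in replicate 1, 0.334 CPM in replicate 2 and no count in TPM. Adh7, an alcohol dehydrogenase that acts on retinol, had 983 CPM in replicate 1, 1.28 CPM in replicate 2 and 25.1 and 29.9 CPM in TPM. Plin5, which coats lipid droplets, had 421 CPM in replicate 1 and 0.667 CPM in replicate 2. The Klk1b kallikreins are near copies of each other, so that their single values are uncertain. Acan (aggrecan), of the cartilage list, was at 837 CPM in replicate 1 and 32.2 CPM in replicate 2, beside 6.02 and 6.06 CPM in TPM.
On the other side were Fosb, Cxcl2, Il1b, Hcar2, Vgll2, Nrk, Capn6, Irg1, Ccl3 and Egr3. Fosb, an immediate early gene, had 1313 CPM in replicate 2, 8.36 CPM in replicate 1 and 13.2 and 4.98 CPM in TPM. Il1b and Cxcl2, which myeloid cells make, had 153 and 323 CPM in replicate 2, 0.155 and 1.39 CPM in replicate 1, and from 26.6 to 177 CPM in TPM, so that for these replicate 1 was the library apart. Vgll2, a cofactor of muscle development, had 88.8 CPM in replicate 2 and no count in replicate 1 or in TPM.

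**Figure D5:**
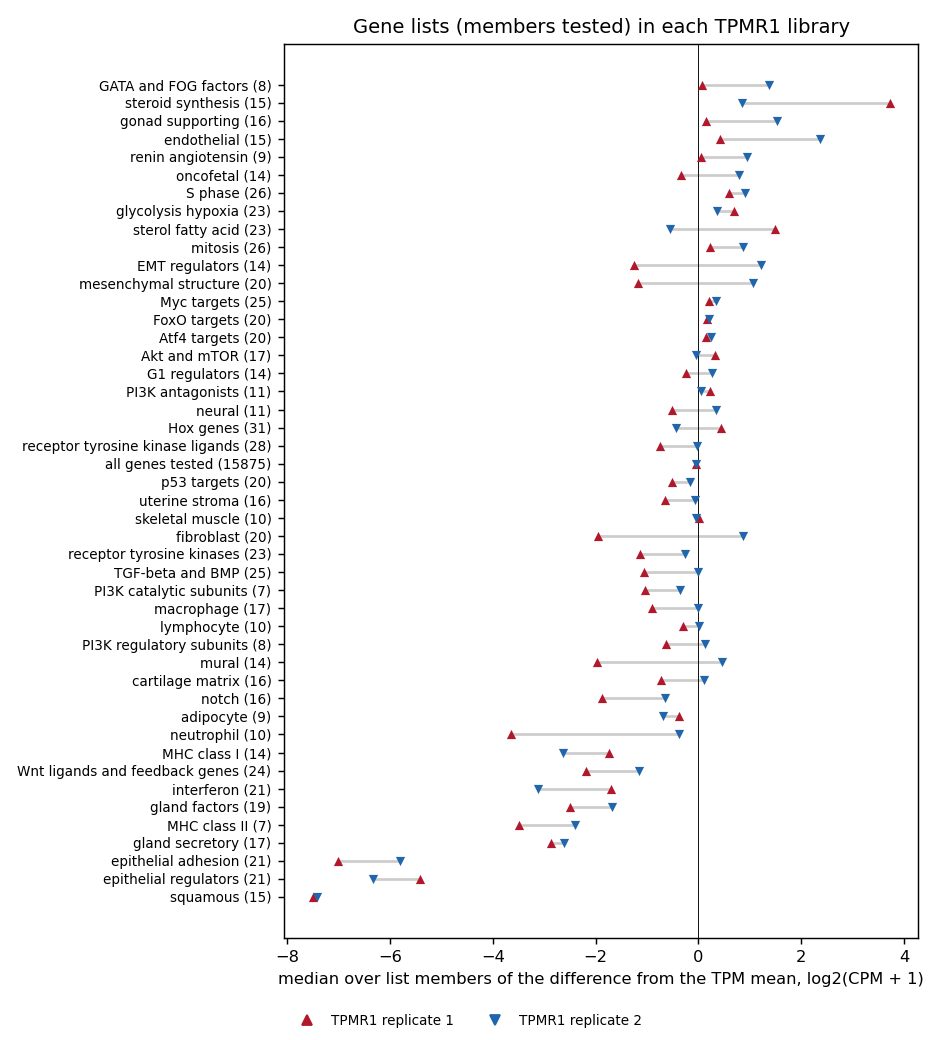
For each gene list with at least 7 genes tested (number in brackets), the triangles give the median difference from the TPM mean on log2(CPM + 1) in TPMR1 replicate 1 (red) and replicate 2 (blue). Both lie far left for the squamous, epithelial and gland lists, while the fibroblast, mesenchymal, EMT, sterol and steroid lists are spread wide between the libraries.

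TPMCa tumors, whose label is TPMPik3ca and which share the TPM edits, were the nearest model for comparison. Set against TPMCa, TPMR1 had 0 genes called at an adjusted p under 0.05 (edgeR), with 1867 at an unadjusted p under 0.05, while the Wald test of DESeq2 called 772. Without TPMR1 replicate 2 the count was 1379 by edgeR. The junction genes were low in both models, as in Epcam, at 5 and 3.12 CPM in TPMCa, and Cdh1, at 6.97 and 5.34 CPM. Zeb2 stood at 117 and 134 CPM in TPMCa, close to TPMR1. Gata4 was at 5.32 and 11.3 CPM in TPMCa beside 137 and 183 CPM in TPMR1, and Nr5a1 at 0.507 and 5.23 CPM beside 753 and 148 CPM. In both genes the TPMR1 libraries were above both TPMCa libraries, and neither passed the test between these models.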

How the data were processed

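RNA of 8 tumors, 2 of each of 4 models, was sequenced by the authors as poly(A) libraries, aligned to mm10 with STAR and deposited as raw read counts per gene symbol. The counter, the annotation, the strand setting and the tool versions are not given in the sources used here. A second deposited table of size-factor normalized values was not used, and 0 columns were left without a sample. Of the 24419 rows, 25 symbols had been turned into dates. Part of the edited genes is left out of the text.

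Counts were fitted with the quasi-likelihood test of edgeR 4.0.16 (R 4.3.3), with TMM factors, the default filter on low counts by model and 1 fit over the 8 libraries, and p-values were adjusted by Benjamini-Hochberg over the 15875 genes tested, with a threshold of 0.05. CPM uses the TMM library size. Each SE is the absolute log2 fold change divided by the square root of the F statistic of its test, not a separate estimate. Replicates are separate mice, and p-values measure the spread between these few samples. A permutation test of 2 against 2 libraries cannot go below p = 0.333. Totals ran from 15748396 to 26943611 counts. The genes named were the members of 48 lists holding 801 genes, the 10 largest changes in each direction among called genes with a mean log2 CPM of 3 or more and no overlap between the models, and the 10 genes furthest apart between the TPMR1 libraries in each direction at 30 CPM or more; predicted genes were left out. The members and lists were chosen with earlier results of these data known, so that their counts beside the share of all genes are a description. The alternatives were other size factors, the Wald test of DESeq2 1.42.0, other filters, a fit of the compared libraries alone, a replicate block, the threshold of the study and leaving out each library. Guides were located in GENCODE vM21 transcripts and promoters taken from RefSeq (GRCm38.p6).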

Additional observations from a re-analysis of the deposited data

How the results depend on the processing

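The count of 886 genes called between TPMR1 and TPM was 874 with RLE size factors, 878 with library size alone, 1051 without a filter on low counts and 927 with at least 10 counts in 4 libraries. It was 2868 by the Wald test of DESeq2, of which 62.1% were lower against 80.6% by edgeR, 53 when only the 4 libraries compared were fitted, 96.2% of them lower, and 3192 at the threshold of the study (a log2 fold change beyond 1 in either direction at an unadjusted p under 0.05, 62.5% of them lower). Leaving out 1 library gave counts from 164 to 2059, a library left alone in its model being assumed to vary like the other models. Between TPMR1 and TPMCa the count was 0, 772 by DESeq2 and from 0 to 1379 with 1 library left out. The cause of these shifts was not tested. The replicate numbers are shared between models only as numbers: deviations of same-numbered libraries correlated between -0.08 and 0.013 over genes, and with the replicate block 557 genes were called, 69 higher and 488 lower. Of 112 named genes that were called, 0 reversed in direction under any alternative and 14 stayed called under every one; 105 were called with TPMR1 replicate 1 alone and 81 with replicate 2 alone. With 2 libraries for each model, no group was large enough to look for a single library far from the rest.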
